A study of Mus musculus with 12 samples.

Results

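AP-1 is a transcription factor built from pairs of FOS, JUN and ATF proteins, and its genes are described here with other immediate early genes in primary mouse colonic myofibroblasts that lack tumor necrosis factor receptor 1 (TNFR1). The members were taken by gene symbol and are Fos, Fosb, Fosl1, Fosl2, Jun, Junb, Jund, Egr1, Ier3 and Atf3, which make 10 of the 24411 gene symbols in the deposited table. All 10 were expressed at a level that could be tested. The cells were TNFR1-/- (6 libraries, called knockout here) or heterozygous TNFR1+/- (6 libraries, called control), so the controls also carried a disrupted Tnfrsf1a allele. Cells of both genotypes came from the distal colon of 16-week-old C57BL/6 mice and were expanded in medium with 10% fetal bovine serum, insulin, transferrin, selenium and 20 ng/mL murine epidermal growth factor. Cultures of passage 6 to 8 were then grown in Matrigel, untreated, and harvested on day 5 for RNA sequencing of poly(A) RNA.

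Immediate early genes are transcribed within minutes of a stimulus, from factors already present in the cell, and most of their mRNAs are short-lived. Serum, growth factors such as EGF, and TNF induce them through ERK, JNK and p38 kinases, which act on serum response factor with its ternary complex factors, on CREB and ATF proteins, and on JUN itself. FOS proteins bind DNA only as heterodimers, mostly with JUN proteins, whereas JUN proteins also pair among themselves, and the dimers bind the AP-1 site of genes for matrix proteases, cytokines and growth regulators. In fibroblasts AP-1 is known for its part in the response to serum and to wounding.

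In the knockout libraries the transcripts of Fos, Junb, Jund, Egr1, Ier3 and Atf3 were lower than in the control libraries, by 1.52-fold to 6.05-fold. Fosl2 and Jun were higher, by 1.36-fold and 1.49-fold, and Fosb and Fosl1 did not pass the test. These 8 calls of 10 members stood beside 43.0% of all 12146 tested genes called in either direction. Of the members, 6 were lower beside 21.6% of all tested genes, and 2 were higher beside 21.4%. The median log2 difference of the 10 members, knockout minus control, was -0.62, against 0.02 over all tested genes. The knockout and control libraries did not overlap for 3 members (Junb, Jund and Egr1), beside 23.0% of all tested genes. All calls come from edgeR's quasi-likelihood test with Benjamini-Hochberg adjustment over all tested genes at a threshold of 0.05. Levels are scaled CPM (a gene's count relative to the counts of all tested genes in its library, scaled between libraries). Errors are SD over 6 libraries or the SE of a log2 difference.

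The libraries were not evenly spread within a genotype, and this touches every result below. Libraries 1 to 4 of the knockout group formed a near-identical set, as did its libraries 5 and 6. Among the controls, libraries 1 to 5 formed a set and control 6 stood by itself, which makes 4 sets. Spearman correlation over the tested genes reached 0.989 to 0.998 for libraries of a shared set, against 0.926 to 0.954 for libraries of a shared genotype but different sets and 0.882 to 0.976 between genotypes. Control 6 was more like knockout 1 to 4 (0.968 to 0.976) than like control 1 to 5 (0.952 to 0.954), although its label is control. Knockout 1 to 4 were likewise closer to control 1 to 5 (0.937 to 0.941) than to knockout 5 and 6 (0.926 to 0.927). Libraries of a shared set still differed by more than counting noise, with a mean chi-square per gene of 1.38 to 9.83 where counting alone gives about 1. The pairs with knockout 3 gave 9.49 to 9.83, and all other pairs gave 1.38 to 3.89. Each was kept as a library, although this excess does not show that they are separate animals or cultures. Whether any libraries are separate animals or cultures is not stated in the labels, so the p-values measure the spread among these libraries alone, and that spread may be technical. With the counts summed by set and compared 2 against 2, edgeR called 0% of genes higher and 0% lower, 1047 of 13132 genes had an unadjusted p under 0.05, and 1 of the 10 members (Egr1) did. Total counts were 6543013 to 9937008 in the knockout libraries and 11890729 to 16458689 in the control libraries, so genotype and depth cannot be told apart. The pre-ribosomal transcript Rn45s took 7.01% and 8.25% of counts in knockout 5 and 6, 1.63% to 2.1% in knockout 1 to 4, and 0.351% to 1.19% in the controls. Tnfrsf1a, the targeted gene, averaged 44.1 ± 2.32 CPM in knockout libraries and 74.8 ± 10.1 CPM in control libraries (SD, n = 6 each), a log2 difference of -0.76 (SE 0.10, edgeR adjusted p = 9.24e-05), without overlap. Control 6 was the lowest control for it, at 54.9 CPM, against 73.5 to 81.3 CPM in control 1 to 5. Reads from outside the disrupted part of the gene would still be counted. Of the 9 fibroblast and myofibroblast markers, such as Col1a1 and Pdgfrb, 9 were tested, and their summed level was 11100 to 30400 CPM in knockout libraries and 24400 to 34100 CPM in control libraries, with knockout 5 and 6 at the low end.

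**Figure D1:**
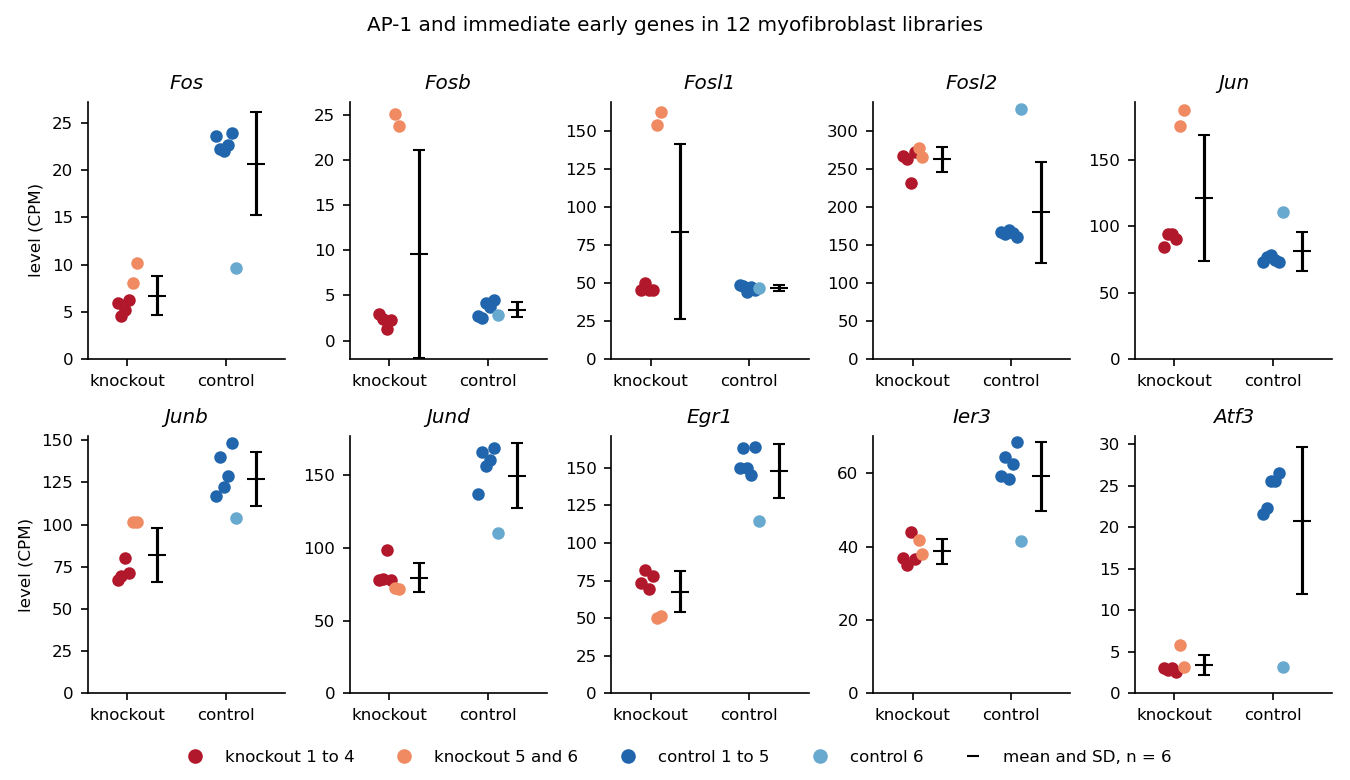
Level of each of the 10 members in every library, in CPM on a linear axis, with knockout libraries left of control libraries, points coloured by set and lines for the group mean and SD (n = 6 each). Junb, Jund and Egr1 separate the genotypes completely, Fos, Ier3 and Atf3 separate them except for control 6, and Fosb, Fosl1 and Jun are highest in knockout 5 and 6.

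Among the FOS subunits, Fos fell and Fosl2 rose. Fos encodes c-FOS, a strong activator that needs a JUN partner. The lowest, median and highest knockout libraries had 4.62, 6.12 and 10.1 CPM of Fos, against 9.60, 22.4 and 23.9 CPM in control libraries. Control 1 to 5 lay together at 22.0 to 23.9 CPM, and control 6, at 9.60 CPM, lay between knockout 5 and knockout 6, which had 8.09 and 10.1 CPM. Knockout 1 to 4 were lowest, at 4.62 to 6.28 CPM. The mean was 6.72 ± 2.05 CPM in knockout and 20.7 ± 5.47 CPM in control libraries (SD, n = 6 each), a log2 difference of -1.61 (SE 0.24, edgeR adjusted p = 0.000259), which is 3.05-fold lower. The counts behind these levels were small, from 33 to 324 per library.

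The Fos promoter is shown because Fos had the greatest fold decrease among the FOS and JUN subunits, beside the promoters of Jun, which rose, and of Ier3 and Atf3, which fell. Each sequence is the RefSeq window of 250 bases before to 50 bases after the start, on build GRCm38.p6, written 5′ to 3′ on the strand of the gene. Fos lies at chr12:85473640-85473939 on the plus strand, Jun at chr4:95052173-95052472 on the minus strand, Ier3 at chr17:35821463-35821762 on the plus strand and Atf3 at chr1:191183284-191183583 on the minus strand. Capitals mark matches to the motifs given after the sequences.
Fos: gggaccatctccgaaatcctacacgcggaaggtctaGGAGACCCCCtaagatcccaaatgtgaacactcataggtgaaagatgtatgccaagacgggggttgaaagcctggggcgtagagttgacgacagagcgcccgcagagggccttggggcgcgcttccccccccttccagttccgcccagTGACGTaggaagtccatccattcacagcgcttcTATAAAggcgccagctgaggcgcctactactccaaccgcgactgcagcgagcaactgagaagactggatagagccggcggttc
Jun: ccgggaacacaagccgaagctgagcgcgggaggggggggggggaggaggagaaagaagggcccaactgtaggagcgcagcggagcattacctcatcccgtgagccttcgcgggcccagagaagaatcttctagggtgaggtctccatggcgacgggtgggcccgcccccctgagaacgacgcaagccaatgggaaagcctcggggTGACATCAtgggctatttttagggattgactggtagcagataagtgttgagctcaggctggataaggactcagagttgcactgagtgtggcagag
Ier3: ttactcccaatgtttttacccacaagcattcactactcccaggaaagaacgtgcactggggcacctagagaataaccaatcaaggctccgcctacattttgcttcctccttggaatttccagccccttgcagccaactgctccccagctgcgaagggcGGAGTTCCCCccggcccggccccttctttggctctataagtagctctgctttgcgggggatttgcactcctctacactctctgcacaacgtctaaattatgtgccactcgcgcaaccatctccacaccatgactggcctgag
Atf3: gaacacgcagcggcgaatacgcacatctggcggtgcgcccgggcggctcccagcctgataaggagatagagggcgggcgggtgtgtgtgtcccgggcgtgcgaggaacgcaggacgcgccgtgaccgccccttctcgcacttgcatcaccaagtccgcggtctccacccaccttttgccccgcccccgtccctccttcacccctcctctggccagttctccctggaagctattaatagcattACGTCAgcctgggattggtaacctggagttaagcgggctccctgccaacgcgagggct
The motifs were searched on both strands in the windows of the 8 members with an entry in the RefSeq table, which are all but Egr1 and Fosl1, and in all 32851 windows of the same length. The AP-1 site TGANTCA, bound by FOS and JUN dimers, was in 0 of the 8 member windows and in 7.81% of all windows. TGACATCA, the AP-1 variant known from the JUN promoter, was in 3.62% of all windows and in that of Jun, 45 to 38 bases before the start. The cAMP response element TGACGTCA was in 1.79% of all windows and in 0 of the 8, while its shorter core TGACGT, which lies within it, was in 7.51% of all windows and in those of Fos (66 to 61 bases before the start) and Atf3 (8 to 3 bases before the start, on the strand opposite the gene, so that it is printed as ACGTCA). The TATA box TATAAA was in 13.6% of all windows and in those of Fos, 33 to 28 bases before the start, and Junb, at the start. The serum response factor motif (CArG box) was in 1.63% of all windows and in 0 of the 8. Sites more than 250 bases before the start were not searched and Egr1 had no window, so this does not show that the members lack the motif. The kappa-B motif, bound by NF-kappa-B, was in 4.51% of all windows and in those of Fos (214 to 205 bases before the start), Fosb, Fosl2 and Ier3 (92 to 83 bases before the start). The matches of Fos, Fosb and Ier3 were on the strand opposite the gene, and Fosl2 had a match on each strand. The Fosl2 matches lay 182 to 173 and 181 to 172 bases before the start, so they overlap and are not separate sites. Of these 4 genes, 2 fell, 1 rose and 1 was not called. A match describes letters in a window and does not show that a factor binds there.

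Fosl2 encodes FRA-2, a FOS protein without the strong activation domain of c-FOS. The lowest, median and highest knockout libraries had 231.6, 266.5 and 277.9 CPM of Fosl2, against 161.1, 166.7 and 328.9 CPM in control libraries. All 6 knockout libraries, at 231.6 CPM or more, lay above control 1 to 5, which reached 170.4 CPM, but control 6 was the highest library of all at 328.9 CPM. The mean was 263.0 ± 16.3 CPM in knockout and 193.1 ± 66.6 CPM in control libraries (SD, n = 6 each), a log2 difference of 0.45 (SE 0.17, edgeR adjusted p = 0.0499). The call rests on the choice of libraries: the log2 difference was 0.67 (edgeR adjusted p = 3.91e-06) without control 6 and 0.42 (edgeR adjusted p = 0.0929) without knockout 5 and 6. With 1 library left out at a time, Fosl2 was called in 2 of the 12 fits. Against control 6 alone, Fosl2 was lower in both knockout sets, by -0.32 (knockout 1 to 4) and -0.27 (knockout 5 and 6) on the log2 scale.

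Fosb and Fosl1 separated knockout 5 and 6 from every other library, rather than knockout from control. Fosb encodes FOSB, a close relative of c-FOS, and the lowest, median and highest knockout libraries had 1.27, 2.68 and 25.1 CPM of it, against 2.48, 3.29 and 4.49 CPM in control libraries. Knockout 5 and 6 had 25.1 and 23.8 CPM, while knockout 1 to 4, at 1.27 to 2.93 CPM, overlapped the controls. The log2 difference was 1.52 (SE 0.68, edgeR adjusted p = 0.0888), and without knockout 5 and 6 it was -0.58 (edgeR adjusted p = 0.0706). The count of Fosb was as low as 8 in a library.

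Fosl1 encodes FRA-1, which ERK signaling is known to stabilise and which is often high in invasive or wounded cells. Its level was 45.5, 47.9 and 162.3 CPM in the lowest, median and highest knockout libraries, against 44.2, 47.0 and 49.0 CPM in control libraries. Knockout 5 and 6 had 153.6 and 162.3 CPM, and the other 10 libraries all lay between 44.2 and 50.2 CPM. The log2 difference was 0.84 (SE 0.35, edgeR adjusted p = 0.0662), and without knockout 5 and 6 it was -0.004 (edgeR adjusted p = 0.958). Fosl1 shares 1163 exon bases on the opposite strand with Ccdc85b, and since the strand setting of the counting is not given in the sources used here, reads of the pair may have been divided. Ccdc85b had 22.4 and 20.8 CPM in knockout 5 and 6 and 35.5 to 49.7 CPM in knockout 1 to 4, against 21.9 to 41.9 CPM in control libraries, and did not pass the test (log2 difference 0.40, edgeR adjusted p = 0.176).

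Among the JUN subunits, Junb and Jund fell and Jun rose. Junb encodes JUNB, which is known to restrain c-JUN at many promoters. Its level was 67.4, 75.8 and 101.7 CPM in the lowest, median and highest knockout libraries, against 104.0, 125.6 and 148.5 CPM in control libraries. The groups did not overlap, but the gap was narrow: knockout 5 and 6 were both at 101.7 CPM and control 6 was at 104.0 CPM. The mean was 82.0 ± 15.8 CPM in knockout and 126.8 ± 16.0 CPM in control libraries (SD, n = 6 each), a log2 difference of -0.63 (SE 0.13, edgeR adjusted p = 0.00215). Junb shares 173 exon bases on the opposite strand with Prdx2, which did not pass the test (log2 difference 0.13, edgeR adjusted p = 0.25).

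Jund encodes JUND, the JUN protein that quiescent cells express most steadily and the one least dependent on fresh stimulation. Its level was 71.3, 77.8 and 98.7 CPM in the lowest, median and highest knockout libraries, against 110.0, 158.0 and 168.1 CPM in control libraries. Every knockout library lay below every control library, and each knockout set was lower than each control set (4 comparisons), by -0.41 to -1.14 on the log2 scale. The mean was 79.4 ± 9.98 CPM in knockout and 149.4 ± 22.3 CPM in control libraries (SD, n = 6 each), a log2 difference of -0.91 (SE 0.12, edgeR adjusted p = 9.64e-05), which is 1.88-fold lower. Jund shares 877 exon bases with an opposite-strand gene that was not analysed here.

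Jun encodes c-JUN, the JNK substrate that activates its own gene. Its level was 84.4, 94.2 and 187.9 CPM in the lowest, median and highest knockout libraries, against 73.0, 75.9 and 110.7 CPM in control libraries. Knockout 5 and 6, at 175.9 and 187.9 CPM, stood above all others, and control 6, at 110.7 CPM, stood above knockout 1 to 4, which had 84.4 to 94.4 CPM. The mean was 121.2 ± 47.3 CPM in knockout and 81.2 ± 14.6 CPM in control libraries (SD, n = 6 each), a log2 difference of 0.58 (SE 0.22, edgeR adjusted p = 0.0477). Without knockout 5 and 6 the call was lost, with a log2 difference of 0.16 (edgeR adjusted p = 0.259). It was also lost when any 1 of control 1 to 5 was left out, and Jun was called in 5 of the 12 fits with 1 library left out. Jun also shares 232 exon bases with an opposite-strand gene not analysed here.

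The makeup of the subunit families, as shares of the counts of a family in a library, followed the sets as well. Shares are not corrected for transcript length, so they compare libraries and not genes. Fos made 1.44% to 2.2% of the FOS family in knockout libraries, against 9.15% to 10.2% in control 1 to 5 and 2.48% in control 6. Fosl1 made 33.0% to 35.1% of it in knockout 5 and 6 and 13.9% to 16.1% in knockout 1 to 4, against 18.4% to 20.3% in control 1 to 5 and 12% in control 6. The FOS family summed to 283.7 to 326.7 CPM in the first 4 knockout libraries and to 461.9 to 464.7 CPM in the other two, against 234.8 to 242.7 CPM in control 1 to 5 and 388.0 CPM in control 6. Fos was thus a smaller share of a larger sum in every knockout library than in control 1 to 5.

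Within the JUN family the share of Jun was higher and that of Jund lower in all knockout libraries than in control 1 to 5. Jun made 50.3% to 52.1% of the JUN family in knockout 5 and 6 and 34.5% to 38.8% in knockout 1 to 4, against 18.7% to 22.4% in control 1 to 5 and 34.1% in control 6. Jund made 19.8% to 20.6% in knockout 5 and 6 and 32.4% to 36.1% in knockout 1 to 4, against 41.8% to 44.1% in control 1 to 5 and 33.9% in control 6. In both shares control 6 was close to knockout 1 to 4.

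**Figure D2:**
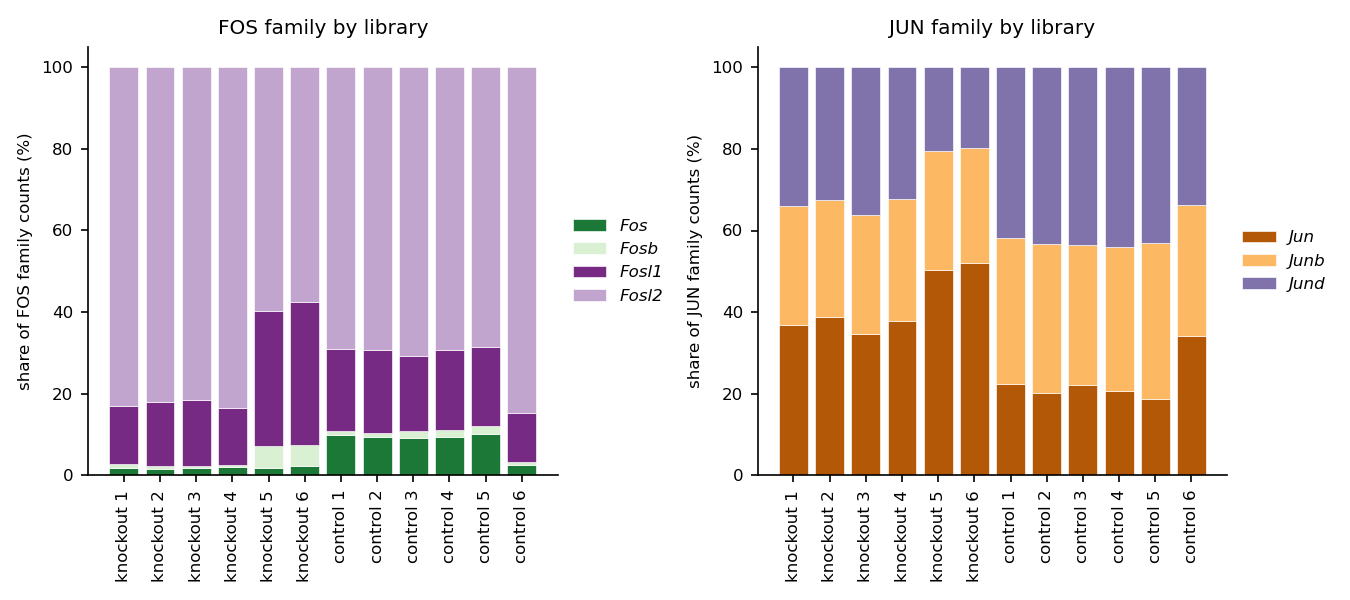
Share of each subunit in the counts of the FOS family (Fos, Fosb, Fosl1, Fosl2) and of the JUN family (Jun, Junb, Jund), in percent, as stacked bars for each library with knockout libraries left of control libraries. Jun makes 50.3% to 52.1% of the JUN family in knockout 5 and 6 and at most 22.4% in control 1 to 5, with control 6 at 34.1%.

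Atf3, Egr1 and Ier3, immediate early genes outside the FOS and JUN families, all fell. Atf3 encodes a stress-induced bZIP protein that pairs with JUN proteins and often represses. Its level was 2.56, 3.02 and 5.81 CPM in the lowest, median and highest knockout libraries, against 3.18, 23.9 and 26.5 CPM in control libraries. Control 1 to 5 lay at 21.6 to 26.5 CPM, whereas control 6, at 3.18 CPM, lay within the range of the knockouts. The mean was 3.406 ± 1.198 CPM in knockout and 20.8 ± 8.85 CPM in control libraries (SD, n = 6 each), a log2 difference of -2.60 (SE 0.42, edgeR adjusted p = 0.000426), which is 6.05-fold lower. Against control 6 alone, Atf3 was 0.51 higher on the log2 scale in knockout 5 and 6 and differed by -0.15 in knockout 1 to 4, so the size of the decrease rests on control 1 to 5.

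Egr1 encodes a zinc finger transcription factor that serum and EGF induce through serum response factor. Its level was 50.4, 71.6 and 82.2 CPM in the lowest, median and highest knockout libraries, against 114.5, 149.6 and 163.4 CPM in control libraries. The groups did not overlap, with knockout 5 and 6 lowest, at 50.4 and 51.5 CPM, and control 6 the lowest control. The mean was 67.5 ± 13.5 CPM in knockout and 147.5 ± 17.9 CPM in control libraries (SD, n = 6 each), a log2 difference of -1.13 (SE 0.14, edgeR adjusted p = 7.4e-05), which is 2.19-fold lower. Egr1 had the smallest adjusted p of the members, and it was lower in each of the 4 comparisons between sets, by -0.58 to -1.60 on the log2 scale.

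Ier3 encodes IEX-1, an ERK partner and survival protein that NF-kappa-B and growth factors induce. Its level was 35.2, 37.5 and 44.1 CPM in the lowest, median and highest knockout libraries, against 41.5, 61.0 and 68.5 CPM in control libraries. Control 6, at 41.5 CPM, lay within the knockout range, and the other controls began at 58.6 CPM. The mean was 38.8 ± 3.44 CPM in knockout and 59.2 ± 9.41 CPM in control libraries (SD, n = 6 each), a log2 difference of -0.61 (SE 0.11, edgeR adjusted p = 0.00109).

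Set against set, 5 members (Fos, Junb, Jund, Egr1 and Ier3) were lower in all 4 pairings of the knockout sets with the control sets, beside 22.0% of all tested genes. No member was higher in all 4, beside 21.5%. For Fos, Junb and Ier3 the comparison of knockout 5 and 6 with control 6 was close to 0, at -0.07, -0.02 and -0.04 on the log2 scale. Leaving out knockout 5 and 6, the same 6 members were called lower, beside 27.5% of all tested genes, and 0 of 10 were called higher, beside 24.5%. At that setting the edgeR test had 7 members with an unadjusted p under 0.05, the 6 lower ones and Fosb. Leaving out control 6 instead, the same 6 members were called lower, beside 24.5% of all tested genes, and Fosl2 and Jun were called higher, beside 25.4%. The log2 differences without control 6 were -1.75 for Fos, -0.68 for Junb, -0.98 for Jund, -1.19 for Egr1, -0.69 for Ier3, -2.82 for Atf3 and 0.69 for Jun. In bulk RNA, fewer cells of a type and less RNA per cell cannot be told apart for any of these genes.

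**Figure D3:**
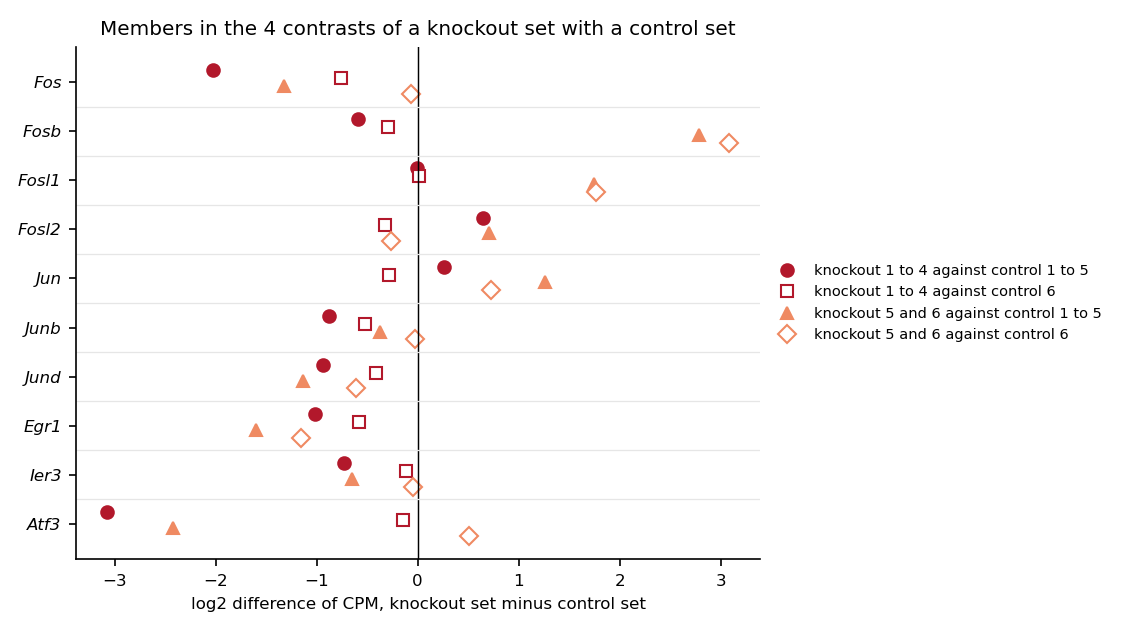
Log2 difference of each member for the 4 pairings of the knockout sets with the control sets, with 0 marked by a line. Fos, Junb, Jund, Egr1 and Ier3 lie below 0 in all 4 comparisons, whereas Fosl2 lies above 0 only against control 1 to 5 and Atf3 lies at 0.51 for knockout 5 and 6 against control 6.

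Markers of other cell types were summed for each library, and the sums were not tested between the groups. Epithelial, endothelial and smooth muscle sums overlapped between the groups, while the macrophage and leukocyte sums and the enteric glia and neuron sums did not. Of the 10 macrophage and leukocyte markers, 9 had at least 1 count, the T cell marker Cd3e was at 0 in every library, and Lyz2 was the highest. Their summed level was 37.2 to 55.2 CPM in knockout libraries and 74.9 to 124.0 CPM in control libraries, highest in control 6. The smooth muscle markers, all 6 of them tested, summed to 5730 to 11600 CPM in knockout libraries and 2720 to 5840 CPM in control libraries, with knockout 1 to 4 highest. Acta2, the highest of them, is also in the fibroblast and myofibroblast list, so this sum does not set smooth muscle cells apart from myofibroblasts. The sums were 14.8 to 23.1 CPM in knockout and 7.42 to 20.0 CPM in control libraries for epithelial markers, and 5.28 to 9.94 CPM and 7.1 to 11.3 CPM for endothelial ones, where Cldn5 was at 0. For enteric glia and neurons they were 22.1 to 34.2 CPM in knockout and 14.6 to 18.0 CPM in control libraries. Uchl1 made up most of that sum, with a mean of 17.4 CPM over all libraries, and 3 of the 6 markers were tested. The sum thus describes mainly 1 gene. The part of these cell types and of depth in the results of the members was not tested. With Rn45s left out of the counts, the 6 lower members and Jun were still called, while Fosl2 missed the threshold (log2 difference 0.44, edgeR adjusted p = 0.0515).

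The bZIP genes whose proteins pair with AP-1 subunits or compete with them were mostly lower. Of 23 listed genes 19 were tested. Of these, 12 fell, 1 rose and 6 were not called, beside 21.6% of all tested genes lower and 21.4% higher. This makes 68.4% called beside 43.0% of all tested genes, with a median log2 difference of -0.44. Ddit3, which encodes the stress factor CHOP, had 59.5, 70.8 and 87.0 CPM in the lowest, median and highest knockout libraries, against 97.8, 792.4 and 815.3 CPM in control libraries. The groups did not overlap, but control 6 was far below the other controls, and the log2 difference was -3.25 (SE 0.40, edgeR adjusted p = 7.4e-05). Ddit3 was picked by its small adjusted p. In the list, 9 of the 19 tested genes did not overlap, beside 23.0% of all tested genes. Cebpd, a C/EBP factor of acute inflammation, averaged 17.3 ± 5.66 CPM in knockout and 47.5 ± 6.04 CPM in control libraries (SD, n = 6 each), a log2 difference of -1.46 (SE 0.19, edgeR adjusted p = 8.92e-05). Control 6 was the highest library for Cebpd, so here it did not lie toward the knockouts. Mafk, a small MAF protein, was the only gene of the list called higher, at 68.6 ± 5.52 CPM in knockout and 58.3 ± 2.65 CPM in control libraries (log2 difference 0.23, SE 0.07, edgeR adjusted p = 0.0182).

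Most of the other immediate early genes that passed the test rose. Of 35 listed genes 33 were tested. Of these, 18 rose, 4 fell and 11 were not called, beside 21.4% of all tested genes higher and 21.6% lower. This makes 66.7% called beside 43.0% of all tested genes, with a median log2 difference of 0.61. Gadd45g, a stress and growth arrest gene, had 115.0, 132.2 and 286.4 CPM in the lowest, median and highest knockout libraries, against 39.0, 43.7 and 85.7 CPM in control libraries. The groups did not overlap, knockout 5 and 6 were highest, and the log2 difference was 1.83 (SE 0.30, edgeR adjusted p = 0.000479). Dusp1, a phosphatase that switches off p38 and JNK, averaged 61.2 ± 4.29 CPM in knockout and 41.2 ± 3.59 CPM in control libraries (log2 difference 0.57, SE 0.08, edgeR adjusted p = 0.000152). It was among the more even genes across sets, with 60.5 CPM in the set of knockout 1 to 4 and 60.2 CPM in that of knockout 5 and 6, against 40.0 CPM in control 1 to 5 and 44.7 CPM in control 6.

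The 4 genes of that list that fell were Zfp36l1, Klf4, Nfkbiz and Btg2. Zfp36l1 encodes a protein that destabilises mRNAs with AU-rich elements, and it averaged 35.3 ± 4.96 CPM in knockout and 59.4 ± 4.28 CPM in control libraries (log2 difference -0.75, SE 0.10, edgeR adjusted p = 0.000104). Klf4, a Kruppel-like transcription factor, averaged 84.6 ± 19.2 CPM in knockout and 165.9 ± 28.4 CPM in control libraries (log2 difference -0.97, SE 0.17, edgeR adjusted p = 0.000704). For both genes, which were picked by their small adjusted p, the groups did not overlap. In the list, 15 of the 33 tested genes did not overlap, beside 23.0% of all tested genes. Without knockout 5 and 6 16 genes of the list were higher and 6 lower, beside 24.5% and 27.5% of all tested genes.

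Upstream of the members, the list of RAS and MAP kinase genes and serum response factor cofactors had more genes called higher than lower. Of 30 listed genes 29 were tested. Of these, 12 rose, 3 fell and 14 were not called, beside 21.4% of all tested genes higher and 21.6% lower. This makes 51.7% called, not far from the 43.0% of all tested genes, with a median log2 difference of 0.31. Map2k3, a p38 activator, averaged 132.8 ± 26.7 CPM in knockout and 56.6 ± 16.0 CPM in control libraries (log2 difference 1.23, SE 0.18, edgeR adjusted p = 0.000191). Nras, a RAS GTPase, averaged 114.4 ± 4.52 CPM in knockout and 84.2 ± 3.43 CPM in control libraries (log2 difference 0.44, SE 0.06, edgeR adjusted p = 0.000147). The genes that fell were Mapk7, which encodes ERK5, and the MEK genes Map2k1 and Map2k2, and for Mapk7 and Map2k1 the log2 differences were -0.43 and -0.33 (edgeR adjusted p = 0.00131 and 0.00182). The 4 genes given here with values did not overlap between the groups, but they were picked by their small adjusted p. In the list, 11 of the 29 tested genes did not overlap, beside 23.0% of all tested genes.

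Known AP-1 targets moved in both directions. Of 27 listed genes 25 were tested. Of these, 10 rose, 8 fell and 7 were not called, beside 21.4% of all tested genes higher and 21.6% lower. This makes 72.0% called beside 43.0%, with a median log2 difference of -0.02. In the list, 14 of the 25 tested genes did not overlap between the groups, beside 23.0% of all tested genes. The targets given here with values were picked by their small adjusted p. Mmp3, the matrix protease stromelysin-1, had 3.48, 4.27 and 10.4 CPM in the lowest, median and highest knockout libraries, against 46.3, 78.2 and 86.4 CPM in control libraries. The groups lay far apart, and the log2 difference was -3.61 (SE 0.29, edgeR adjusted p = 4.98e-06), with every comparison between sets at -2.20 or below. Mt2, a metallothionein, averaged 69.5 ± 22.1 CPM in knockout and 505.7 ± 120.2 CPM in control libraries (log2 difference -2.87, SE 0.25, edgeR adjusted p = 8.47e-06).

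Among the targets that rose, the hyaluronan receptor gene Cd44 averaged 1086 ± 199.0 CPM in knockout and 276.4 ± 204.6 CPM in control libraries (log2 difference 1.97, SE 0.34, edgeR adjusted p = 0.000643). Control 6 had 694.0 CPM of it, the highest control and still below every knockout library. Plaur, the urokinase receptor gene, averaged 134.5 ± 81.5 CPM in knockout and 36.9 ± 5.96 CPM in control libraries (log2 difference 1.87, SE 0.32, edgeR adjusted p = 0.000672), and knockout 5 and 6 carried most of its spread, with 236.7 CPM against 81.0 CPM in knockout 1 to 4. Without knockout 5 and 6 10 targets were higher and 12 lower, beside the same 24.5% and 27.5% of all tested genes.

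**Figure D4:**
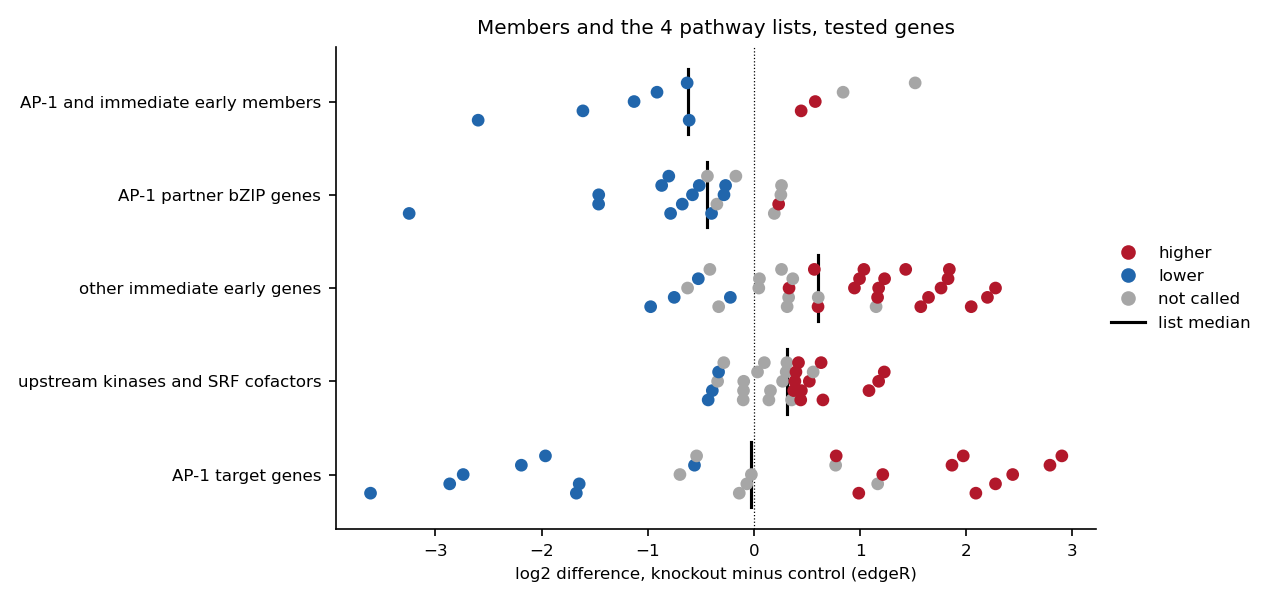
Log2 difference, knockout minus control, of every tested gene in the member list and the 4 pathway lists, with genes that pass the edgeR test marked apart from those that do not and a line at the median of each list. The medians are -0.62 for the 10 members, -0.44 for the bZIP partners, 0.61 for the other immediate early genes, 0.31 for the upstream kinases and cofactors and -0.02 for the AP-1 targets.

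The genes whose level followed Fos most closely over the 12 libraries, by Pearson correlation of log2 CPM, were Slc43a3 (0.992), a membrane transporter gene, Igfbp3 (0.992), which encodes an insulin-like growth factor binding protein, and Derl3 (0.988), of the protein degradation machinery of the endoplasmic reticulum. These correlations describe libraries that fall into 4 sets, so they rest on few distinct levels, and no test was made. Igfbp3 was at 11.2 CPM across knockout 1 to 4 and at 48.0 CPM across knockout 5 and 6, against 815.3 CPM in control 1 to 5 and 65.1 CPM in control 6. Slc43a3 had 27.4 and 51.6 CPM in those knockout sets, against 224.7 and 52.2 CPM in those control sets, the same order from low to high as Fos.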

How the data were processed

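The labels describe poly(A) libraries made strand-specifically with dUTP. The authors deposited expected counts per gene, made with Bowtie2 2.1.0 and RSEM 1.2.15 per the submitters' processing notes. Those notes name a human build (hg38) although the symbols are mouse symbols. No annotation release or strand setting is given. Of the values, 2.67% to 3.48% per library had decimals, and all were rounded to whole counts. All 12 columns matched a sample by its label, and 0 columns were left unmapped.

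The filter was filterByExpr with a minimum count of 10 and a minimum total of 15. Counts were scaled by TMM and tested with edgeR 4.0.16 in R 4.3.3 by genotype alone. CPM uses the library sizes of the tested genes after TMM scaling, and correlations use log2 CPM with a prior count of 2. Levels of a set and log2 differences between sets come from the counts summed by set, scaled anew by TMM. These log2 differences also use a prior count of 2. Set levels therefore differ slightly from library levels. Fosl2 in control 6 was at 328.9 CPM as a library and at 323.9 CPM as a set. A log2 difference is knockout minus control. Its SE was derived as its absolute value over the square root of the F statistic of the edgeR test. Alternatives were other scalings, DESeq2 1.42.0, limma-voom (limma 3.58.1), other filters, Rn45s left out, a replicate block, each library left out, the sets left out, and counts summed by set.

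Named genes are the 10 members, up to 2 called genes per direction with the smallest adjusted p from each pathway list, Tnfrsf1a, and the 3 genes most correlated with Fos. Genes named beyond these were chosen after their values were seen. The members, lists and sets were chosen with earlier results of these data known. Promoters come from RefSeq (GRCm38.p6), and overlapping genes come from the GENCODE M21 annotation. The labels do not say whether equal replicate numbers pair libraries, so the main test used no pairing. Deviations from the group mean correlated at -0.364 to 0.184 between libraries of equal number. The sets shape these deviations, so the check cannot exclude pairing.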

Additional observations from a re-analysis of the deposited data

Results flagged for a closer look

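In a group of 6 libraries, a library was picked out when its gap to the nearest other library, as a share of the whole range, passed Dixon's value of 0.625. This happened in 9 of the 20 groups (10 members in each genotype), and in 6 of the 9 the library was control 6. Chance gives about 1 in 20 for independent groups. These groups hold the same libraries, which fall into sets with control 6 by itself, so the count is no test against chance. Control 6 was the lowest control for Fos (gap 0.91 of the range), Atf3 (0.901), Ier3 (0.687) and Egr1 (0.664). It was the highest control for Fosl2 (0.921) and Jun (0.824). Among the knockouts, knockout 3 was the lowest for Fosl2 (0.695) and the highest for Jund (0.693), and knockout 5 was the highest for Atf3 (0.727). Control 6 lay on the knockout side of the other controls for all 6 of these genes, and for Fosl2 it lay above every knockout. What sets it apart is not given in the labels and was not tested.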

How the results depend on the processing

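The count of members called lower (6) did not change under any alternative except the removal of knockout 5, knockout 6 and control 6, which gave 7, and the counts summed by set, which gave 0. The count called higher (2) was 0 with library totals alone, with no filter on low counts, without knockout 5 and 6, and in the counts summed by set. It was 1 with limma-voom, with a filter of 1 CPM in 6 libraries, and without Rn45s, and 4 with DESeq2. Leaving out each library in turn gave 0 to 4 members higher and 6 lower each time. The edgeR adjusted p then ran from 3.91e-06 to 0.106 for Fosl2, from 0.0217 to 0.104 for Jun, from 0.0402 to 0.166 for Fosl1 and from 0.0453 to 0.242 for Fosb. Fosb reversed to -0.605 (edgeR adjusted p = 0.033) without knockout 5, knockout 6 and control 6. Over all genes, 5219 were called, against 8827 without those 3 libraries and 0 in the counts summed by set, where 1047 had an unadjusted p under 0.05. The cause of these changes was not tested.

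With the replicate block, 2 members were higher and 6 lower, and 3974 genes were called in all. Mafk lost its call (log2 difference 0.23, edgeR adjusted p = 0.0736). Whether equal numbers mark pairs is not stated in the labels, and no knockout library correlated best with the control of its own number. Low counts limit Fosb (8 at the lowest), Fos (33) and Atf3.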
